A study of Homo sapiens with 6 samples.

Results

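The genes described are 8 ligands of the tumour necrosis factor (TNF) superfamily, TNF, LTA, LTB, FASLG, TNFSF4, TNFSF8, TNFSF9 and TNFSF13, taken by gene symbol from the expression tables. They are 8 of the 771 entries with a gene symbol, among 1113 entries in all. The cells were ES2, a line of human ovarian cancer that the labels call epithelial. An antisense oligonucleotide (ASO) pairs with an RNA and can lead to its degradation. The cells of 3 libraries had received a control ASO, and those of the other 3 an ASO directed at RUNX1-IT1, a non-coding transcript of the RUNX1 locus. Both groups were grown in the same medium, and the labels give neither a dose nor a time of treatment. The study asked how knockdown of RUNX1-IT1 changes gene expression in these cells. The level of RUNX1-IT1 itself was not analysed here, so the labels were not checked against it.

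Ligands of this family are mostly made as type II membrane proteins that assemble into trimers, and several are shed or cut to a soluble form. They bind receptors of the TNF receptor superfamily, which recruit TRAF adaptors and activate NF-kB, or recruit death domain adaptors and start apoptosis. Most are best known from lymphocytes and myeloid cells, although TNF and some others are also made by tumour cells.

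The tables hold selected genes, which limits every comparison below. Values are in CPM, that is reads relative to the size of the library, and the listed entries took 1.02 to 1.11% of that scale with the control ASO and 0.363 to 0.389% with the RUNX1-IT1 ASO. The smallest difference between group means of any listed entry was 1.99-fold, so a gene could apparently be listed only if it differed between these same samples. Evenly spaced low values put the libraries at 17100000 to 21200000 reads. The read numbers given beside CPM values are implied by these steps, and 95% intervals are exact Poisson intervals that cover counting error only. The labels do not say whether replicates came from separate cultures, so the p-values reflect no more than the variation among these 6 samples, possibly technical.

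TNF, LTA and LTB are neighbours in the HLA region of chromosome 6. In GENCODE release 29 on GRCh38, LTA lies at chr6:31572054-31574324 and TNF at chr6:31575567-31578336 on the forward strand, 1242 bases apart. LTB lies at chr6:31580525-31582522 on the reverse strand, 2188 bases beyond TNF. All 3 genes were lower under the RUNX1-IT1 ASO, but 95.7% of 771 named entries had every RUNX1-IT1 ASO library below every control ASO library. The stretches before these 3 genes are shown because the neighbours stand in 1 cluster. They are RefSeq promoter sequences (GRCh38.p14) on each gene's own strand, ended before the first base annotated as an exon in GENCODE release 29, at chr6:31575315-31575564 for TNF, chr6:31571849-31572053 for LTA and chr6:31582523-31582675 for LTB. Capitals mark a TATA box, the letters TATAAA on the sense strand.
TNF: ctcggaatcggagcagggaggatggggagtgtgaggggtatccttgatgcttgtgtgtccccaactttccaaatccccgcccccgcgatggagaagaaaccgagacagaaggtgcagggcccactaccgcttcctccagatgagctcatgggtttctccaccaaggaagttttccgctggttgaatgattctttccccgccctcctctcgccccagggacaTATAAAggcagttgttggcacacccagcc
LTA: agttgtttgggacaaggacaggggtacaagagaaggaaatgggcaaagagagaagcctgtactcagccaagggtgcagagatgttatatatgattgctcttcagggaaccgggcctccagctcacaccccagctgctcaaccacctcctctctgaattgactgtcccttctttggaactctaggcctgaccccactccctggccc
LTB: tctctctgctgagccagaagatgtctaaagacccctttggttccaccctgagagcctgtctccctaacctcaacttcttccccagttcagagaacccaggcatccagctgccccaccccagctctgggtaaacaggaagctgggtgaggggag
The TNF TATA box began 29 bases before the RefSeq start. A RefSeq promoter was matched for 7 of the 8 ligands, and the 250 bases before the start were searched in each. TATAAA stood in 2 of these 7 windows, TNF and TNFSF9, against 7.20% of 27305 promoter windows of the same length. The NF-kB consensus, searched on both strands, matched in 2 of 7, against 9.58% of all windows. Its matches, read on each gene's strand, were GGAAAGTCCC in LTB, beginning 86 bases before the start, and GGGAAATCCC in TNFSF13, beginning 141 bases before the start. An AP-1 motif (TGANTCA, both strands) was in none of the 7 windows and in 6.57% of all windows. Of the RUNX motifs, searched on both strands, TGTGGT was in the TNFSF4 window alone (11.05% of all windows) and TGCGGT in none (5.73%). Of these matches only the TNF TATA box lay wholly before the first base annotated as an exon in GENCODE release 29. The others reached past that base in their windows. A match describes letters in the window and is not evidence of binding.

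AU-rich elements in the 3′ untranslated region mark many cytokine RNAs for rapid decay. The core heptamer TATTTAT was counted on the sense strand in the longest annotated 3′ untranslated region of each gene, overlaps included. TNF held 8 copies, LTA 3, TNFSF4 2, and FASLG and TNFSF9 1 each, while LTB, TNFSF8 and TNFSF13 held none. The densest 30 bases of the TNF and LTA regions are shown, with the heptamers in capitals, because these neighbouring genes carry the most copies among the ligands.
TNF: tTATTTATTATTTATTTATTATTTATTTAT
LTA: gaaggcaaaaaaattaaatTATTTATTTAT
At least 1 copy was present in 5 of the 8 ligands, in 34.7% of 593 listed protein-coding genes and in 31.1% of 19159 protein-coding genes. Ligands with a copy and those without, LTB, TNFSF8 and TNFSF13, were lower under the RUNX1-IT1 ASO, as given below. Of all 771 named entries 95.7% had every RUNX1-IT1 ASO library below every control ASO library. Whether decay through AU-rich elements had a part was not tested. ZFP36, whose protein binds such elements and promotes decay, was the 1 listed gene of 15 fixed for this process and fell from 10.5 ± 0.701 to 4.68 ± 1.04 CPM (SD, n = 3 each), although on the log2 scale it stood at 0.28, not called, once libraries were rescaled to equal listed totals.

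For all 8 ligands the highest RUNX1-IT1 ASO library lay below the lowest control ASO library. Of all 771 named entries 95.7% were separated in this way, so the count is near the background. Summed over the 8 genes, ligand CPM was 25.7, 24.1 and 25.4 in control ASO replicates 1, 2 and 3. Under the RUNX1-IT1 ASO it was 8.34, 8.01 and 6.56 in the same order of replicate numbers. The sum was 3.28-fold lower, and the sum over all listed entries was 2.83-fold lower. The folds of the single ligands ran from 2.37 for FASLG to 7.998 for TNFSF8, with a median of 3.24, the same to 3 digits as the median of 3.24 over all named entries. In bulk RNA, fewer cells that make a transcript and less transcript per cell cannot be told apart.

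**Figure D1:**
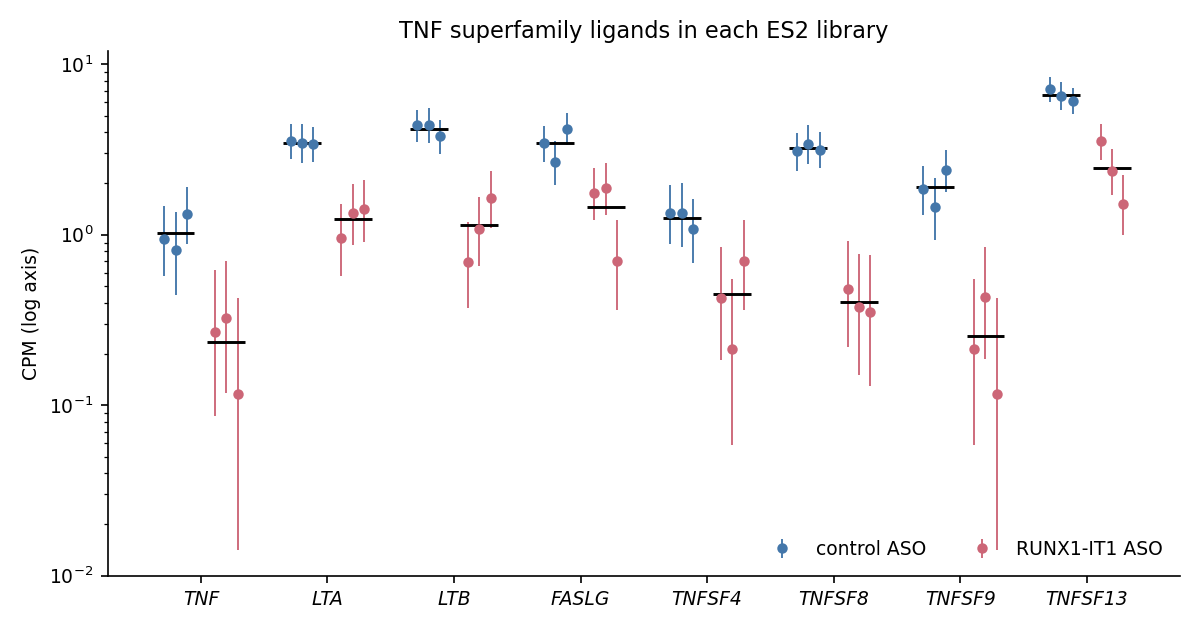
CPM of each ligand (log axis) in the 3 control ASO libraries (blue) and the 3 RUNX1-IT1 ASO libraries (red), in replicate order, with 95% Poisson intervals of the implied reads and black lines at group means. In all 8 genes every red point lies below every blue point, and the lowest points are the 0.117 CPM of TNF and TNFSF9 in RUNX1-IT1 ASO replicate 3.

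TNF, the inflammatory cytokine that names the family, was the scarcest of the 3 HLA region ligands. It stood at 0.947, 0.811 and 1.32 CPM in control ASO replicates 1, 2 and 3 (19, 14 and 28 implied reads). Under the RUNX1-IT1 ASO the values were 0.267, 0.323 and 0.117 CPM (5, 6 and 2 implied reads). The means were 1.03 ± 0.263 and 0.236 ± 0.107 CPM (SD, n = 3 each), 4.35-fold lower. The groups did not overlap, but the difference rests on 61 reads against 13 in all, and RUNX1-IT1 ASO replicate 3 lay below the floor of 3 reads (0.176 CPM). With a mean of 0.631 CPM, TNF did not reach the minimum of 1 CPM set for the main test. In limma with no filter on low values its change on the log2(CPM + 1) scale was -0.71 ± 0.15 (SE, adjusted p = 0.000313), in a fit that called 97.3% of 771 genes lower and 2.46% higher.

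LTA, lymphotoxin alpha, is secreted as a trimer that binds the TNF receptors and also joins LTB in membrane trimers that bind the lymphotoxin beta receptor. Its control ASO values were the most even of the 8 ligands, at 3.54, 3.47 and 3.39 CPM, and its RUNX1-IT1 ASO values were 0.963, 1.34 and 1.41 CPM. It was 2.80-fold lower and fell by 1.00 ± 0.13 on the log2 scale (limma, adjusted p = 6.02e-06). LTB, the membrane anchor of those trimers, stood at 4.39, 4.401 and 3.77 CPM in the controls and at 0.695, 1.08 and 1.64 CPM under the RUNX1-IT1 ASO. It was 3.68-fold lower and fell by 1.30 ± 0.16 (limma, adjusted p = 4.17e-06). The groups did not overlap for either gene, as for 95.7% of all 771 named entries. In the same limma fit 97.5% of the 489 tested genes were called lower and 2.04% higher at an adjusted p under 0.05, so these calls do not set the lymphotoxins apart from the other listed genes.

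Genes around the cluster were looked for in the tables. Of 19159 protein-coding genes with a 3′ untranslated region 593 are listed, so few neighbours would be listed in any case. Of 32 genes fixed as neighbours in the HLA region, LST1, a leukocyte-specific transcript whose gene starts 3601 bases beyond LTB, was the only one listed. Its mean was 1.52 ± 0.197 CPM in the controls and 0.312 ± 0.109 CPM under the RUNX1-IT1 ASO (SD, n = 3 each), 4.87-fold lower. Its mean was under the minimum for the main test, and with no filter it changed by -0.94 ± 0.13 (limma, adjusted p = 8.76e-06). Of 19 genes fixed as neighbours of the other 5 ligands, none was listed in the tables used here. FASLG and TNFSF4, both on the long arm of chromosome 1, lie 516859 bases apart.

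FASLG encodes the ligand of FAS, a death receptor that starts apoptosis. It lies at chr1:172659018-172666874 and had 3.44, 2.66 and 4.19 CPM in control ASO replicates 1, 2 and 3 (69, 46 and 89 implied reads). Under the RUNX1-IT1 ASO it had 1.77, 1.88 and 0.703 CPM (33, 35 and 12 implied reads). It had the smallest fold of the 8, 2.37-fold lower, and the groups came closest here in relative terms, at 1.88 CPM in the highest RUNX1-IT1 ASO library and 2.66 CPM in the lowest control. The change of -0.88 ± 0.20 was called (limma, adjusted p = 0.000768), but turned to 0.14 when libraries were rescaled to equal listed totals. FAS itself is not listed in the tables used here.

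The costimulatory ligands TNFSF8, TNFSF9 and TNFSF4 bind TNFRSF8, TNFRSF9 and TNFRSF4 on lymphocytes. TNFSF8, the CD30 ligand, at chr9:114893343-114930595, had 3.09, 3.42 and 3.16 CPM in the controls and 0.481, 0.376 and 0.351 CPM under the RUNX1-IT1 ASO. Its 188 control reads stood against 22, a 7.998-fold difference that ranked 74th of the 771 named entries by fold. It fell by 1.59 ± 0.12 (limma, adjusted p = 5.08e-08), and the replicates of each group were close together. In the same fit 97.5% of the 489 tested genes were called lower. TNFSF8 passed the filter only through its control ASO mean (3.22 CPM, against 0.403 CPM under the RUNX1-IT1 ASO). TNFSF8 shares bases with DEC1 on the opposite strand, and without a stated strand setting the reads of the 2 genes cannot be told apart.

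TNFSF9, at chr19:6530999-6535928, had 1.84, 1.45 and 2.40 CPM in the controls and 0.214, 0.430 and 0.117 CPM under the RUNX1-IT1 ASO. It was 7.48-fold lower, 83rd by fold, on 113 reads against 14, and fell by 1.20 ± 0.15 (limma, adjusted p = 4.5e-06). That fit called 97.5% of the 489 tested genes lower. TNFSF9 also passed its filter only through the control ASO mean (1.90 CPM, against 0.254 CPM under the RUNX1-IT1 ASO). RUNX1-IT1 ASO replicate 3 held 2 implied reads, below the floor of 3. TNFSF4, at chr1:173183734-173207313, stood at 1.35, 1.33 and 1.08 CPM in the controls and 0.428, 0.215 and 0.703 CPM under the RUNX1-IT1 ASO. The 2.79-fold difference was too low in level for the main test, and with no filter the change was -0.65 ± 0.15 (limma, adjusted p = 0.000645). The groups did not overlap for either gene, as for 95.7% of all 771 named entries. The 95% counting interval of TNFSF4 nevertheless reached up to 1.23 CPM in RUNX1-IT1 ASO replicate 3. It reached down to 0.687 CPM in control ASO replicate 3, so these intervals overlapped.

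TNFSF13 encodes APRIL, a secreted ligand that supports plasma cells through TNFRSF13B and TNFRSF17. It was the most abundant of the 8 in CPM, at 7.12, 6.54 and 6.13 in the controls (143, 113 and 130 implied reads) and at 3.53, 2.37 and 1.52 under the RUNX1-IT1 ASO (66, 44 and 26 implied reads). Its lowest control was thus above its highest RUNX1-IT1 ASO library, as for 95.7% of all 771 named entries. It was 2.67-fold lower and fell by 1.17 ± 0.18 (limma, adjusted p = 2.9e-05), though it stood at 0.02 after that rescaling. At chr17:7558292-7561608 it shares its exons with the readthrough gene TNFSF12-TNFSF13, so its reads may include that transcript. TNFSF12, the other gene of the readthrough, is not listed in the tables used here, nor are the other 9 ligands of the family that were looked for.

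**Figure D2:**
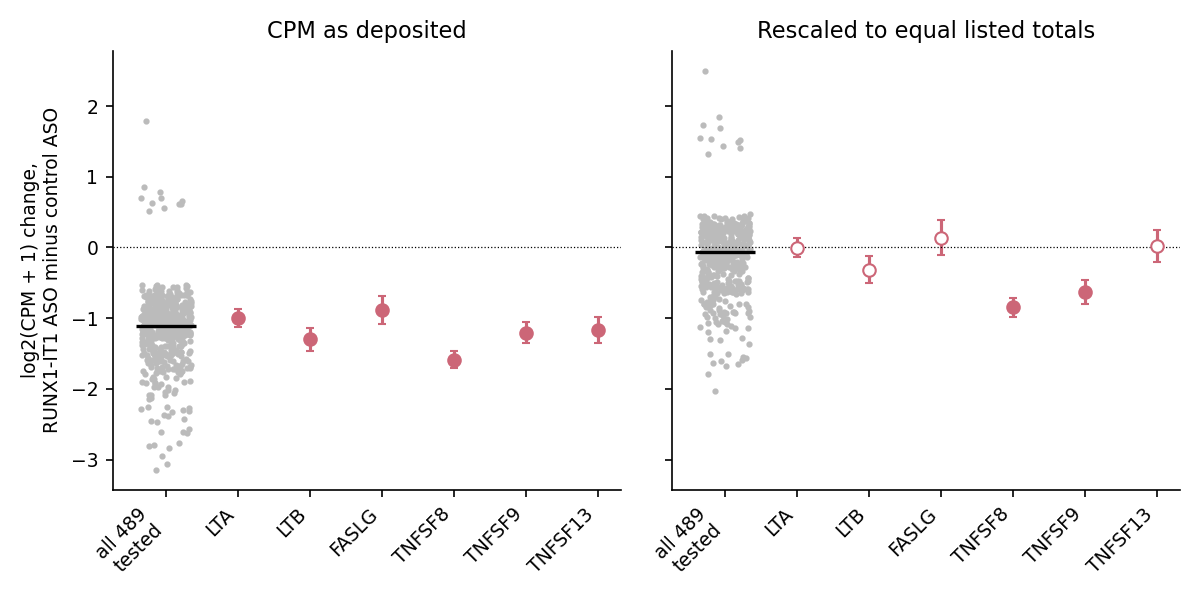
Change in log2(CPM + 1), RUNX1-IT1 ASO minus control ASO, for all 489 tested genes (grey, black line at the median) and for the 6 tested ligands (red, bars are limma standard errors), from CPM as deposited (left) and after rescaling to equal listed totals (right). Filled red points are called at an adjusted p under 0.05, which are all 6 on the left and TNFSF8 and TNFSF9 on the right.

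All 6 tested ligands were called lower, as were 97.5% of the 489 tested genes, so the count is near the background. Their median change was -1.19, against -1.11 over all tested genes. The scale on which the libraries are compared decides how the ligands stand. When the libraries were rescaled to equal totals over the listed entries, the median over all tested genes moved to -0.06 and the ligand median to -0.16. TNFSF8, at -0.85 ± 0.14 (limma, adjusted p = 0.00072), and TNFSF9, at -0.63 ± 0.17 (limma, adjusted p = 0.0155), were then still called lower, beside 24.1% of the tested genes called lower and 8.79% higher. Both reached the minimum of 1 CPM only through their control ASO means (3.22 and 1.90 CPM). Their RUNX1-IT1 ASO means were 0.403 and 0.254 CPM, so their entry to the test depended on the group where they were high. LTB stood at -0.31 and LTA at -0.002, neither called, and FASLG (0.14) and TNFSF13 (0.02) changed sign without a call. Since nearly every listed gene fell, rescaling to their total brings them to around 0 by construction, and a value near 0 marks a fall about as large as that of the listed total.

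The make-up of the ligand pool within each library does not depend on library scaling. TNFSF8 made up 12.01 to 14.2% of the summed ligand CPM in control ASO libraries and 4.69 to 5.77% in RUNX1-IT1 ASO libraries. TNFSF9 went from 6.01 to 9.44% down to 1.78 to 5.37%. These were the 2 ligands whose shares did not overlap between groups. The exact two-sided permutation test gave p = 0.1 for each, and 0.4 after adjustment over the 8 ligands. Since 0.1 is the smallest p that 3 libraries against 3 allow, no ligand could be called at the threshold used for limma. The test therefore cannot decide whether these 2 stand apart. Shares within a library also depend on each other, since a lower share of 1 ligand raises those of others. How often other sets of listed genes would separate in this way was not tested. TNFSF13 held the largest share, 24.1 to 27.7% in the controls and 23.2 to 42.3% under the RUNX1-IT1 ASO, and the shares of TNF, LTA, LTB, FASLG, TNFSF4 and TNFSF13 overlapped (exact permutation p = 0.4 to 0.9, adjusted 0.64 to 0.9).

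**Figure D3:**
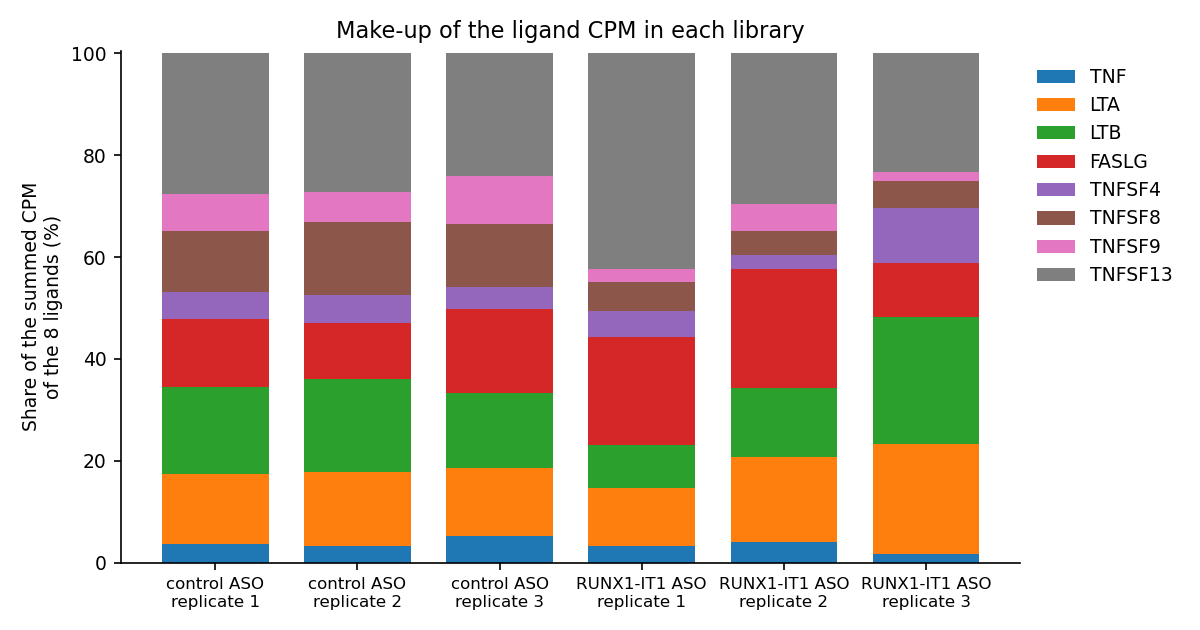
Share of each ligand in the summed CPM of the 8 ligands (percent), 1 bar per library. The TNFSF8 band lies at 12.01 to 14.2% in the 3 control ASO libraries and at 4.69 to 5.77% in the 3 RUNX1-IT1 ASO libraries.

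Levels of different genes were compared per kilobase of annotated exon, since longer transcripts give more reads. In control ASO libraries TNFSF13 (2.90 ± 0.2205 CPM per kilobase) and LTB (2.73 ± 0.234) stood highest, with overlapping values, followed by LTA (2.00 ± 0.0418), FASLG (1.82 ± 0.405), TNFSF9 (1.14 ± 0.288), TNFSF8 (1.11 ± 0.0594), TNF (0.612 ± 0.157) and TNFSF4 (0.318 ± 0.0373), SD with n = 3. Neighbours in this order were separated without overlap between LTB and LTA, between TNFSF8 and TNF, and between TNF and TNFSF4. Under the RUNX1-IT1 ASO the neighbours were separated at another place. TNFSF13, FASLG, LTB and LTA stood at 0.713 to 1.09 CPM per kilobase on average, and TNFSF9, TNF, TNFSF8 and TNFSF4 at 0.114 to 0.152, with overlap between neighbours inside each set and none between LTA and TNFSF9. TNFSF8 was thus level with TNF under the RUNX1-IT1 ASO (0.139 ± 0.0237 and 0.141 ± 0.0636 CPM per kilobase), while in the controls it was above TNF in every library.

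Genes of the receiving side of the pathway were looked for in the tables as well. Of 29 receptors of the family 1 was listed, TNFRSF9, the receptor of TNFSF9. It stood at 4.17 ± 0.05001 CPM in the controls and 0.845 ± 0.0601 CPM under the RUNX1-IT1 ASO (SD, n = 3 each), 4.93-fold lower, and fell by 1.49 ± 0.12 (limma, adjusted p = 7.5e-08). After rescaling to equal listed totals it was still called, at -0.55 (limma, adjusted p = 0.00646). Like TNFSF8 and TNFSF9, TNFRSF9 reached the minimum of 1 CPM only through its control ASO mean. Of all tested genes 97.5% were called lower as deposited and 24.1% after rescaling.

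Among 30 adaptors and kinases that act below these receptors, 3 were listed and all 3 were called lower, with a median change of -1.90, beside 97.5% of all tested genes called lower. TRAF1, an adaptor of several receptors of the family, went from 26.4 ± 1.37 to 3.53 ± 0.929 CPM, 7.48-fold lower. BIRC3, a ubiquitin ligase of the receptor complexes, went from 80.5 ± 2.61 to 20.9 ± 1.31 CPM, and CASP10, a caspase of the death receptors, from 2.35 ± 0.285 to 0.499 ± 0.0801 CPM. All 3 were still called lower after rescaling, at -1.31, -0.44 and -0.41, where 24.1% of all tested genes were. CASP10 reached the minimum of 1 CPM only through its control ASO mean, so its entry to the test depended on that group. Of 18 NF-kB subunits and inhibitors 4 were listed, all inhibitors or regulators, and all 4 were called lower, again near the share of all tested genes, with a median of -1.34. TNFAIP3, which removes ubiquitin from receptor complexes and so dampens NF-kB, was 4.87-fold lower and was still called lower after rescaling (-0.78), whereas NFKBIA (2.69-fold lower, 0.06 after rescaling) and NFKBIE (2.49-fold lower, 0.17 after rescaling) were not, and NFKBIZ (2.09-fold lower) was called higher there (0.42). The 10 genes fixed for shedding and processing of the ligands, among them ADAM17, were not listed.

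Of 32 genes known to respond to TNF, 9 were listed and 8 tested, and all 8 were called lower, with a median of -1.30. The 5 with the highest control levels were IL11, IRF1, PTGS2, CXCL2 and CSF1. IL11, a cytokine of the interleukin 6 family, went from 49.3 ± 1.18 to 23.9 ± 1.63 CPM, IRF1, a transcription factor, from 43.1 ± 1.30 to 14.9 ± 1.06 CPM, and PTGS2, the inducible cyclooxygenase, from 39.8 ± 0.705 to 15.0 ± 1.17 CPM. CXCL2, a neutrophil chemokine, was 2.31-fold lower and CSF1, a macrophage growth factor, 3.08-fold lower. After rescaling 1 of the 8 was called lower and 1 higher, IL11 at 0.44, and the median was -0.03. CXCL2 (0.27) and PTGS2 (0.08) also changed sign there, without a call. IL6, the gene called lower there (-0.80), is named after its values were seen. These lists were drawn up with earlier results of these data known, and 97.5% of tested genes were called lower, so the counts do not show that the pathway moved apart from other listed genes.

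**Figure D4:**
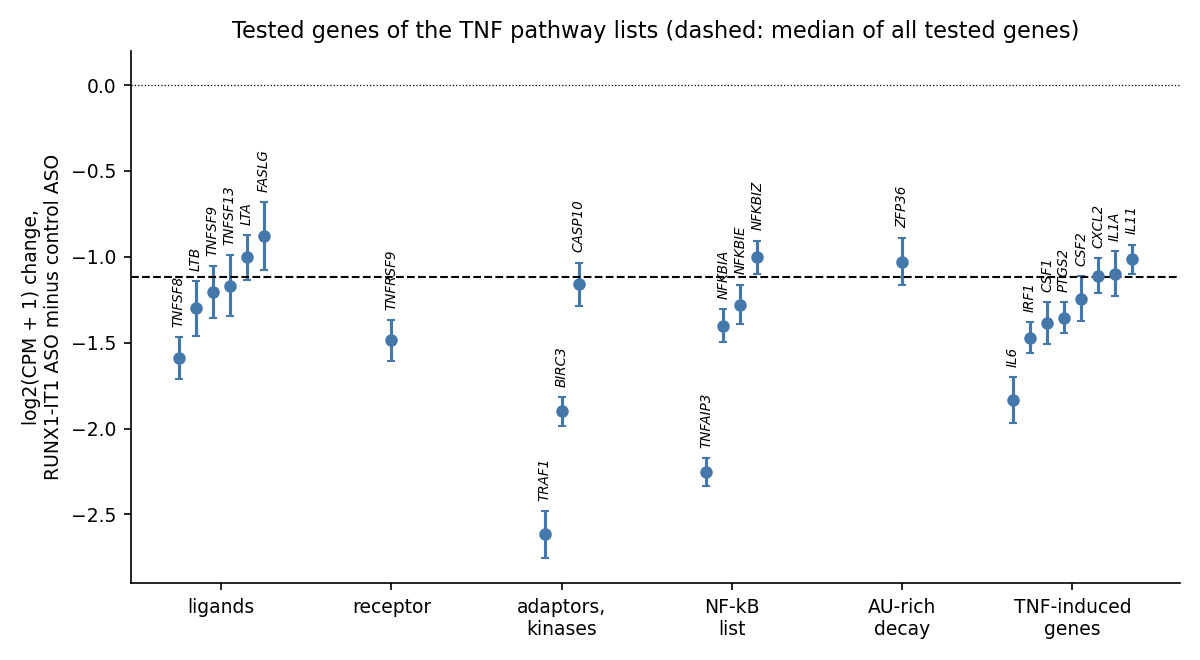
Change in log2(CPM + 1), RUNX1-IT1 ASO minus control ASO, of the tested genes on 6 lists of the TNF pathway (points, bars are limma standard errors), with the median of all 489 tested genes dashed. TRAF1, TNFAIP3 and BIRC3 lie lowest, and the 6 ligands lie around the dashed line. Adding 1 to CPM shrinks the change of genes at low levels, so heights of genes at unlike levels do not compare as folds. TNFSF9 and TRAF1 were both 7.48-fold lower but changed by -1.20 and -2.62.

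Markers of the cells in which these ligands are best known were looked for in the tables. Of 22 immune cell markers 1 was listed, ITGAM, an integrin of myeloid cells, at 1.62 to 1.84 CPM in the controls and 0.0590 to 0.214 CPM under the RUNX1-IT1 ASO. It was 13.5-fold lower, with its lowest library under the floor of 3 reads. Its RUNX1-IT1 ASO mean of 0.127 CPM was also under that floor (0.160 to 0.176 CPM in these libraries), so the fold rests on few reads. These markers do not cover all leukocyte genes, and the leukocyte transcript LST1, given above, was listed too. None of 12 fibroblast and endothelial markers was listed, and of 16 ovarian and epithelial markers PAX8 (7.16 ± 0.733 and 2.98 ± 0.602 CPM) and ESR1 (2.42 ± 0.279 and 0.828 ± 0.0254 CPM) were. The levels of markers outside the tables were not analysed here. Whether other cells had a part in the ligand values was not tested.

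The genes whose values followed each tested ligand most closely were found by the root mean square difference of log2(CPM + 1), centred on each gene's mean, over the 6 libraries. LTA was closest to PTHLH, a parathyroid hormone-like peptide gene (difference 0.0306), and IL11 (0.0458). LTB was closest to TMEM198 (0.0527) and TGM4 (0.0702), and FASLG to ZNF490 (0.0659) and HIST1H4E (0.157). TNFSF8 was closest to PLA2G4C, a phospholipase gene (0.0585), and RPLP0P2 (0.0656). TNFSF9 was closest to FYB (0.0653) and HIST1H2BD (0.0988), and TNFSF13 to DENND2C (0.135) and AMZ2P1 (0.136). No tested ligand was among the 2 closest genes of another.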

How the data were processed

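The authors deposited 1 CPM value per entry and library. The unit was read from the values, since the file headers name only the library. Reads were handled with fastp 0.22.0 and FastQC 0.11.9 on build GRCh38, per the submitters' processing notes. Not given in the sources used here were the aligner, counter, annotation, strand setting and gene filter. The step between low values gave the CPM worth of 1 read, and every value up to 320 steps was a whole multiple to within 0.1 step. In control ASO replicates 1, 2 and 3 the smallest values were 2, 5 and 2 steps, which leaves the step less certain there, and no count test was run. A floor of 3 reads is 0.141 to 0.176 CPM.

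Values were tested as log2(CPM + 1) by limma 3.58.1 (R 4.3.3), with group as the only term and a trend of variance on mean. Adding 1 to CPM shrinks the change of genes at low levels, so changes and their medians do not compare as folds between genes at unlike levels. The fit took in 489 named genes whose mean reached 1 CPM, with Benjamini-Hochberg adjustment over all of them and a threshold of 0.05. It was tested on simulated data in which most genes did not change and the others were split evenly between lower and higher. That setting differs from these tables, so the simulation does not vouch for the fit here. TNF and TNFSF4 did not pass this filter. Fold changes are ratios of group means. No 2 libraries held identical values, and chi-square per degree of freedom between replicates was 2.17 to 3.42, above sampling noise. Entries without a symbol (342, at 9.35 to 10.4% of listed CPM) were left out of the main test.

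The members and lists were chosen with earlier results of these data known. The named genes were the 8 ligands, up to 5 listed members of each list by control level, and the 2 nearest genes of each tested ligand. Shares, levels per kilobase and sequence searches were added after the values were seen. Alternatives were another pseudocount, other filters, rescaling, no trend, a replicate block, unnamed entries and leaving out each library.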

Additional observations from a re-analysis of the deposited data

How the results depend on the processing

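All 6 tested ligands stayed called lower in limma without a trend, with a pseudocount of 0.1, with entries without a symbol also tested, and without each library in turn, where their median ran from -1.23 to -1.09. Rescaling to equal listed totals left 2 ligands called lower, a ligand median of -0.16, and 118 genes lower and 43 higher, and turned FASLG to 0.14 and TNFSF13 to 0.0169. A pseudocount of 0.1 put the ligand median at -1.66, and no filter, with all 8 ligands in the fit, at -1.09. With no filter 750 genes were called lower and 19 higher, and with unnamed entries 20 were called higher. A minimum of 5 CPM left no ligand to test. All 165 genes then tested were called lower in limma and 0 higher (0 higher at an unadjusted p under 0.05). Same-numbered replicates did not deviate together (correlation over genes of -0.24, -0.10 and -0.02 for numbers 1, 2 and 3), and no sample correlated best with its own number. With a replicate block 6 ligands, with a median of -1.19, and 478 genes were called lower and 10 higher. The planned count tests were not run, since the step worth of 1 read was less certain in the control ASO libraries. Depth limits TNF, TNFSF9, TNFSF8 and TNFSF4 most, with 13, 14, 22 and 24 reads over the 3 RUNX1-IT1 ASO libraries.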

Other observations

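The ligands did not vary alike among the RUNX1-IT1 ASO libraries. TNFSF13 was highest in replicate 1 (3.53 CPM, 95% Poisson interval 2.73 to 4.49) and lowest in replicate 3 (1.52 CPM, 0.995 to 2.23), and these intervals did not meet. LTB had the opposite order, with 0.695 CPM (0.370 to 1.19) in replicate 1 and 1.64 CPM (1.09 to 2.37) in replicate 3, and these intervals overlapped. FASLG was lowest in replicate 3, at 0.703 CPM (0.363 to 1.23) against 1.88 CPM (1.31 to 2.62) in replicate 2, and in that library it held as many implied reads as TNFSF4, 12 each. The coefficient of variation between replicates was 40.8% for TNFSF13, 41.8% for LTB and 44.8% for FASLG under the RUNX1-IT1 ASO, against 7.60%, 8.60% and 22.3% in the controls. Of the ligands with fewer reads, TNFSF9 varied by 63.2%, TNFSF4 by 54.5%, TNF by 45.2% and TNFSF8 by 17.1% under the RUNX1-IT1 ASO. Whether read numbers account for these differences was not tested.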
